A study of Homo sapiens with 8 samples.

Results

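The genes described here encode the NF-kB transcription factors and the proteins that hold them in check: the subunits NFKB1, NFKB2, REL, RELA and RELB, and the inhibitors NFKBIA, NFKBIB, NFKBIE, NFKBIZ and TNFAIP3. They were taken by symbol from the deposited gene table, where all 10 were found among 25066 genes, and all 10 were among the 12531 genes with a mean log2 value of at least 4.2 over the libraries. The material was RNA of TMD8, a human cell line grown from an activated B cell-like lymphoma, with Cas9 delivered by lentivirus in every group. The labels do not say whether the edited cells were 1 clone or a pool. There were 4 groups of 2 libraries: sgKLHL14 cells (a guide against KLHL14, genotype labelled KLHL14(-/-)) in ibrutinib, sgCTRL cells (a control guide, labelled KLHL14(+/+)) in ibrutinib, sgKLHL14 cells in DMSO, and sgCTRL cells in DMSO. Ibrutinib, a covalent inhibitor of the kinase BTK, was given at 2 nM, and DMSO is its solvent. Exposure lasted 24 h in all groups.

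NF-kB proteins act as dimers of the subunits. NFKBIA, NFKBIB and NFKBIE encode IkB proteins that bind the dimers and keep them out of the nucleus until a kinase complex marks the IkB protein for destruction, while NFKBIZ encodes an IkB-like nuclear protein that binds NF-kB on DNA and can activate as well as inhibit genes. TNFAIP3 encodes an enzyme that edits ubiquitin chains and shuts the pathway off upstream. Several of these genes are themselves NF-kB targets, so that the pathway feeds back on itself. In lymphoma cells of this kind, B cell receptor signals pass through BTK to the IkB kinases.

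The starts of the genes were searched for the kB consensus, the 10-letter site that NF-kB dimers bind, on both strands of RefSeq promoter windows (build GRCh38.p14) that hold 250 bases before and 50 after a transcript start. Windows were given for 8 of the 10 genes, without RELB and NFKBIE, and 7 of those 8 held the consensus, while it was found in 5.91% of 35116 windows of that length. RELA was the gene with a window and no match. The letters GGGAATTTCC were picked as those matched in the most of these genes. They were found on one strand or the other for 5 genes, NFKB1, REL, NFKBIA, NFKBIB and NFKBIZ, in any window of a gene. Of all single windows 0.145% held them, but letters picked from these genes give no test against that share. A match describes letters only and does not show that NF-kB was bound. The 5 windows below are those of the genes on which the results turn: the inhibitors and the subunit that changed most with ibrutinib, the inhibitor that did not change in sgCTRL cells, and the gene with no match. They are written 5′ to 3′ on the gene's strand, with the letters of the consensus in capitals.
NFKBIA: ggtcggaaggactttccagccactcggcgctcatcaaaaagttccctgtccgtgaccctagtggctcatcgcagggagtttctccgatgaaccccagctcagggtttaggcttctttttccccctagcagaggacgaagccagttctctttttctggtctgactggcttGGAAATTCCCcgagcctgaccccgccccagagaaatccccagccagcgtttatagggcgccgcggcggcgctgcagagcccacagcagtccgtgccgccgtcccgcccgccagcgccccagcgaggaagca
TNFAIP3: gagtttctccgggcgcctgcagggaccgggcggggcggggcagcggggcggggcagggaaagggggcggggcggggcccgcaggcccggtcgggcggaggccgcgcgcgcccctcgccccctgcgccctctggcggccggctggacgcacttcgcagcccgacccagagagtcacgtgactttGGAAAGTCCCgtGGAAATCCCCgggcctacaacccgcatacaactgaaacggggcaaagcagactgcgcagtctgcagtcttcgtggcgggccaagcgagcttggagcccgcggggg
NFKB2: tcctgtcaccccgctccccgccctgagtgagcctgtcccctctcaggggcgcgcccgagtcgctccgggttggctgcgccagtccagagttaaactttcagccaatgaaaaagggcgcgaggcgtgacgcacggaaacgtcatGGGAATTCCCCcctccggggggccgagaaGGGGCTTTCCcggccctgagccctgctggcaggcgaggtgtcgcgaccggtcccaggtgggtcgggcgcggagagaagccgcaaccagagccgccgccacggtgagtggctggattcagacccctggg
NFKBIZ: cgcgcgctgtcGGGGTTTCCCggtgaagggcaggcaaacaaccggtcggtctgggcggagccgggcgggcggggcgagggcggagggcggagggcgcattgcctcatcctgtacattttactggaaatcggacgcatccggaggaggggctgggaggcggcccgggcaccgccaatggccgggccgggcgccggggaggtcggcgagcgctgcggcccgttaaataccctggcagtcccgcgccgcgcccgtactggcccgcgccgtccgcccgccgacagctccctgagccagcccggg
RELA: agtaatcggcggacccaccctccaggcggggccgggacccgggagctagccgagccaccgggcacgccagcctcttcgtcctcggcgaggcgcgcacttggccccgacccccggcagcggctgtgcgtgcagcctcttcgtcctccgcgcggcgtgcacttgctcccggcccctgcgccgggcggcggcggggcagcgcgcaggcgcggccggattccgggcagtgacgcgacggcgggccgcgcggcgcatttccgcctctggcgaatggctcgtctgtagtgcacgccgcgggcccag
The NFKBIA window is chr14:35404700-35404999 on the minus strand, and its capitals are the reverse complement of GGGAATTTCC, beginning 81 bases before the start. In the TNFAIP3 window, chr6:137867009-137867308 on the plus strand, matches began 67 and 55 bases before the start. The NFKB2 window is chr10:102394328-102394627 on the plus strand, where overlapping matches make up the first stretch of capitals and a single match the second. The NFKBIZ window, chr3:101849264-101849563 on the plus strand, had its match 239 bases before the start, and another NFKBIZ start held GGGAATTTCC. The RELA window is chr11:65662867-65663166 on the minus strand.

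Deposited totals ran from 12333876 to 16843591 reads in the ibrutinib libraries and from 13497206 to 23467110 in the DMSO libraries. The 2 libraries of each group were farther apart than counting error alone gives (chi-square divided by its degrees of freedom, 2.19 to 8.20), and each was kept as a sample of its own. Nothing in the labels says that they were separate cultures, and p-values therefore measure the spread between these libraries, which may be technical. KLHL14 mRNA was at log2 13.16 and 13.16 in sgKLHL14 ibrutinib libraries, 12.30 and 12.30 in sgCTRL ibrutinib, 12.19 and 12.33 in sgKLHL14 DMSO, and 12.07 and 12.06 in sgCTRL DMSO. It was thus not lower in the libraries labelled sgKLHL14, and since gene-level counts cannot reveal a small insertion or deletion, the genotype is unchecked here. The 6 B cell markers MS4A1, CD79A, CD79B, CD22, PAX5 and IRF4 lay between 12.73 and 16.09 in every library. With ibrutinib 5 of them were higher and 1 lower under each guide (limma adjusted p under 0.05). Their median change was 0.35 with sgKLHL14 and 0.40 with sgCTRL. Of all tested genes 39.3% passed with sgKLHL14 and 35.1% with sgCTRL. The level filter kept 2 of 8 T cell markers, CD4 (log2 2.80 to 5.35) and CD8A (5.24 to 6.13), while CD3D and CD3E had 0 reads throughout. The summed level of the 8 was 3.44 to 3.89 RPM (reads scaled to library size) in ibrutinib libraries against 1.68 to 2.09 in DMSO. The median change of CD4 and CD8A with ibrutinib was 1.03 with sgKLHL14 and 1.18 with sgCTRL. None of 8 myeloid markers passed. Of 8 epithelial and fibroblast markers 4 passed, namely CDH1, COL1A1, COL1A2 and PDGFRB, and KRT19 was at 0. The sum of the 8 was 53.0 to 60.0 RPM in ibrutinib and 44.1 to 57.8 in DMSO. Most of it was CDH1, at log2 9.99 to 10.44 (552 to 1151 reads), followed by COL1A1 at 6.22 to 7.54. The part of these markers, and of depth, in the results was not tested. In bulk RNA, fewer cells of a kind and less RNA per cell cannot be told apart.

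The first question was what the BTK inhibitor did to the pathway's own genes. The inhibitors NFKBIA and TNFAIP3 fell most, NFKBIA to about 50% of its DMSO level with either guide. NFKB2 fell less and RELA and NFKB1 did not pass the test. In sgCTRL cells 6 of the 10 genes fell, and none rose, where 17.0% of all tested genes fell and 18.1% rose (35.1% called in all; limma, Benjamini-Hochberg adjusted p under 0.05). In sgKLHL14 cells 6 fell and 1 rose, against 19.4% lower, 19.9% higher and 39.3% called among all genes. In 7 genes (NFKB1, NFKB2, RELB, NFKBIA, NFKBIB, NFKBIE and TNFAIP3) every ibrutinib library lay below every DMSO library, which held for 21.2% of all tested genes. No gene of the 10 had all its ibrutinib libraries above all DMSO libraries, against 21.4% of all genes.

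**Figure D1:**
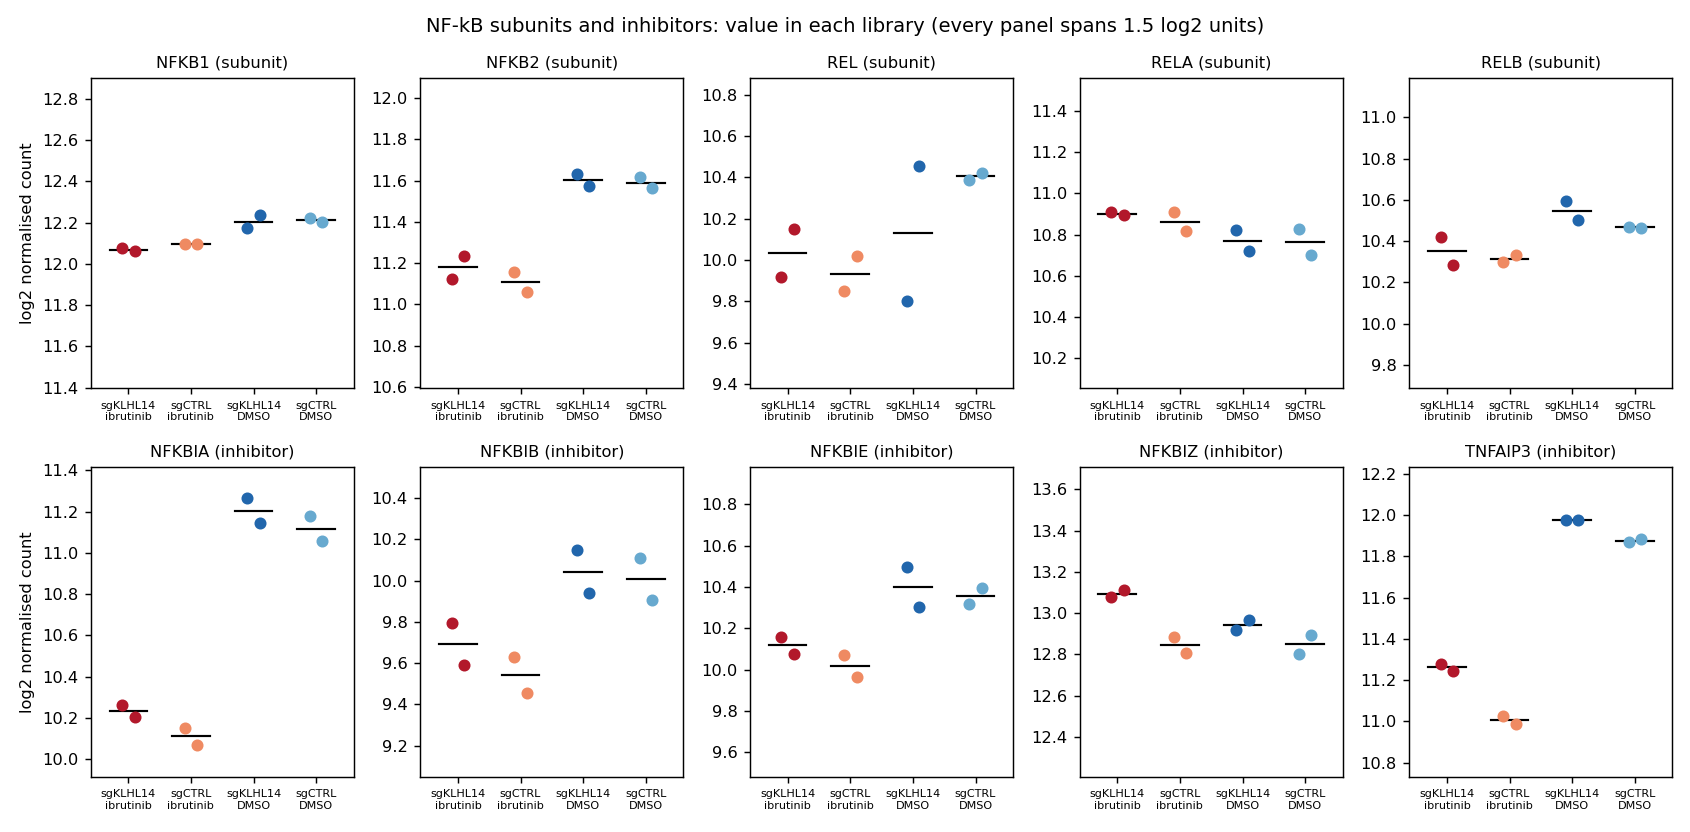
Log2 normalised count of each gene (vertical axis) in every library, by group (horizontal axis), with a bar at the group mean of 2 libraries. For NFKBIA and TNFAIP3 the 4 ibrutinib points lie well below the 4 DMSO points, while REL, RELA and NFKBIZ overlap between treatments.

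Among the subunits, NFKB2, whose product is the precursor of a subunit and in its unprocessed form retains dimers in the cytoplasm, had the clearest decrease. Its log2 values were 11.12 and 11.23 in sgKLHL14 ibrutinib libraries and 11.16 and 11.06 in sgCTRL ibrutinib libraries, against 11.63 and 11.57 in sgKLHL14 DMSO and 11.62 and 11.56 in sgCTRL DMSO. The treatments did not overlap. With sgKLHL14, NFKB2 fell by 0.42 (SE 0.066, limma adjusted p = 4.57e-05), to 74.6% of the DMSO level. With sgCTRL it fell by 0.48 (SE 0.066, adjusted p = 1.20e-05), to 71.6%.

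REL encodes c-Rel, a transactivating subunit prominent in B cells, and had the widest spread between replicates of the 10 genes. Its log2 values were 9.92 and 10.15 in sgKLHL14 ibrutinib, 9.85 and 10.02 in sgCTRL ibrutinib, 9.80 and 10.46 in sgKLHL14 DMSO, and 10.39 and 10.42 in sgCTRL DMSO libraries. The first sgKLHL14 DMSO library was the lowest of all 8 and the second the highest. Its reads numbered 512 to 1178 per library. REL fell with sgCTRL by 0.47 (SE 0.137, limma adjusted p = 0.0113), but not past the threshold without sgCTRL DMSO replicate 1 (0.0575) or 2 (0.0672), or sgCTRL ibrutinib replicate 1 (0.0907). It also missed the threshold without the level filter (0.121), without the variance trend (0.145) and with a robust prior (0.121). With sgKLHL14 the change was -0.10 (adjusted p = 0.609). Without sgKLHL14 DMSO replicate 1 it was -0.42 (0.00366), without replicate 2 it was 0.23 (0.0980), and without sgKLHL14 ibrutinib replicate 1 it was 0.019 (0.941).

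NFKB1, which encodes the other precursor of a DNA-binding subunit, ran from 12.06 to 12.10 in the ibrutinib libraries and from 12.17 to 12.24 in DMSO. The treatments did not overlap, but the changes of -0.12 with sgCTRL (SE 0.057, limma adjusted p = 0.122) and -0.14 with sgKLHL14 (adjusted p = 0.0661) did not pass. RELB, the partner of the processed NFKB2 product in the alternative pathway, ran from 10.29 to 10.42 in ibrutinib and from 10.46 to 10.59 in DMSO. RELB fell by 0.19 with sgKLHL14 (SE 0.073, adjusted p = 0.0429), while the change with sgCTRL was -0.15 (adjusted p = 0.117). That call ended without sgKLHL14 DMSO replicate 1 (0.208), sgKLHL14 ibrutinib replicate 2 (0.305) or either sgCTRL ibrutinib library (0.0670 and 0.0672). It ended likewise without the level filter (0.0588), without the variance trend (0.0853), with quantile scaling (0.0559) and in a fit of the compared groups alone (0.0788). RELA, the main transactivating subunit, ran from 10.82 to 10.91 in ibrutinib and from 10.70 to 10.83 in DMSO, with overlap. Its changes of 0.10 with sgCTRL (adjusted p = 0.301, 95% interval -0.05 to 0.25) and 0.13 with sgKLHL14 (adjusted p = 0.153, interval -0.02 to 0.28) did not pass.

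Among the inhibitors, NFKBIA, the IkB protein best known for rapid resynthesis after NF-kB activation, had log2 values of 10.26 and 10.20 in sgKLHL14 ibrutinib and 10.15 and 10.07 in sgCTRL ibrutinib libraries. In DMSO they were 11.26 and 11.14 with sgKLHL14 and 11.18 and 11.06 with sgCTRL. Every ibrutinib library was lower than every DMSO library by more than the replicates differed. With sgKLHL14, NFKBIA fell by 0.97 (SE 0.073, limma adjusted p = 4.97e-09), to 51.0% of the DMSO level. In sgCTRL cells it fell by 1.01 (SE 0.073, adjusted p = 2.97e-09), to 49.8%.

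TNFAIP3, a tumour suppressor in B cell lymphoma, had log2 values of 11.28 and 11.24 in sgKLHL14 ibrutinib, 11.02 and 10.99 in sgCTRL ibrutinib, 11.98 and 11.98 in sgKLHL14 DMSO, and 11.87 and 11.88 in sgCTRL DMSO. The treatments were apart, and within each treatment both sgKLHL14 libraries lay above both sgCTRL libraries. The ibrutinib level was 54.7% of the DMSO level with sgCTRL and 60.9% with sgKLHL14, where TNFAIP3 fell by 0.72 (SE 0.060, limma adjusted p = 1.88e-08). The ibrutinib calls of NFKB2, NFKBIA and TNFAIP3 held with both guides under each of the alternatives, including those that left out 1 library.

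NFKBIB and NFKBIE, which encode further cytoplasmic IkB proteins, fell by less than NFKBIA. NFKBIB had log2 values of 9.79 and 9.59 in sgKLHL14 ibrutinib and 9.63 and 9.45 in sgCTRL ibrutinib, against 10.15 and 9.94 in sgKLHL14 DMSO and 10.11 and 9.91 in sgCTRL DMSO. In each group the replicates were about 0.2 apart, and the treatments did not overlap. In sgKLHL14 cells NFKBIB fell by 0.35 (SE 0.100, limma adjusted p = 0.00891), and in sgCTRL cells it fell by 0.47 (SE 0.100, adjusted p = 0.00126). The sgKLHL14 call ended without sgKLHL14 DMSO replicate 1 (0.115), without sgKLHL14 ibrutinib replicate 2 (0.129), with no level filter (0.0583) or no variance trend (0.0772). NFKBIE ran from 9.96 to 10.16 in ibrutinib and from 10.30 to 10.50 in DMSO. In sgKLHL14 cells it fell by 0.29 (SE 0.081, adjusted p = 0.00889), and in sgCTRL cells it fell by 0.34 (SE 0.081, adjusted p = 0.00281). These calls ended without sgCTRL ibrutinib replicate 2 (0.0521) for sgCTRL, and without sgKLHL14 DMSO replicate 1 (0.127), sgKLHL14 ibrutinib replicate 2 (0.0789) or the variance trend (0.0524) for sgKLHL14.

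NFKBIZ did not follow the other inhibitors. Its log2 values were 13.08 and 13.11 in sgKLHL14 ibrutinib, 12.88 and 12.80 in sgCTRL ibrutinib, 12.92 and 12.97 in sgKLHL14 DMSO, and 12.80 and 12.89 in sgCTRL DMSO. The sgKLHL14 ibrutinib libraries were the 2 highest of the 8, the sgKLHL14 DMSO libraries came next, and the sgCTRL libraries of both treatments overlapped. With sgCTRL the ibrutinib change was -0.004 (SE 0.058, limma adjusted p = 0.967, 95% interval -0.13 to 0.12). With sgKLHL14 NFKBIZ rose by 0.15 (SE 0.058, adjusted p = 0.0458), a call that ended without any 1 library other than those of sgCTRL DMSO (0.05 to 0.174), without the level filter (0.0796), without the variance trend (0.125) and in a fit of the compared groups alone (0.0954).

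**Figure D2:**
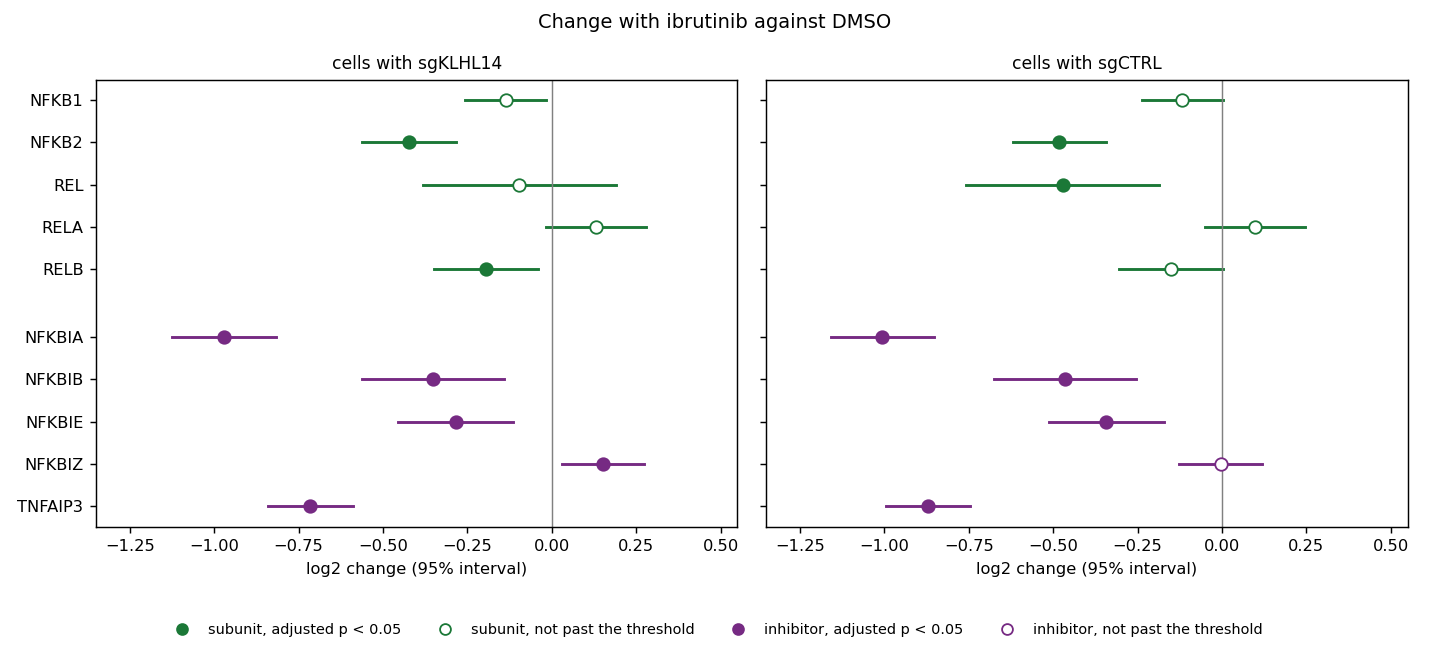
Log2 change, ibrutinib against DMSO (horizontal axis), of each gene in sgKLHL14 cells and in sgCTRL cells, with 95% intervals from limma; filled points have an adjusted p under 0.05. NFKBIA and TNFAIP3 lie farthest to the left with both guides, and RELA lies right of 0 without passing.

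Set side by side, the inhibitors changed by more than the subunits on average, and NFKBIA and TNFAIP3 weighed most in that average. The subunit NFKB2 changed by -0.422 with sgKLHL14 and -0.482 with sgCTRL. These falls were larger than those of NFKBIB (-0.351 and -0.465) and NFKBIE (-0.285 and -0.342), and NFKBIZ was not called lower with either guide. In sgKLHL14 cells 4 of 5 inhibitors fell and 1 rose, with a mean change of -0.43 and a median of -0.35, while 2 of 5 subunits fell, with a mean of -0.14 and a median of -0.14. In sgCTRL cells 4 of 5 inhibitors fell, with a mean of -0.54 and a median of -0.47, and 2 of 5 subunits fell, with a mean of -0.22 and a median of -0.15. The median change of all tested genes was 0.01 with sgKLHL14 and 0.02 with sgCTRL. Of all tested genes 19.4% fell and 19.9% rose with sgKLHL14, and 17.0% fell and 18.1% rose with sgCTRL. Called in either direction were 39.3% and 35.1%, so 2 of 5 subunits called is near the share of all genes. With sgKLHL14 the calls of RELB, NFKBIB, NFKBIE and NFKBIZ were lost under some alternatives. The mean change of the inhibitors minus that of the subunits was -0.29 with sgKLHL14 and -0.31 with sgCTRL. Over the alternatives it ran from -0.38 to -0.20 and from -0.36 to -0.26 for these guides in turn. Genes are not replicates, so the difference between the classes has no test.

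The same contrast was computed in each library as the mean log2 value of the 5 inhibitors minus that of the 5 subunits. It was 0.03 and -0.08 in sgKLHL14 ibrutinib libraries, -0.11 and -0.21 in sgCTRL ibrutinib, 0.36 and 0.17 in sgKLHL14 DMSO, and 0.15 and 0.16 in sgCTRL DMSO. All 4 ibrutinib libraries were below all 4 DMSO libraries. The group means were -0.03 ± 0.074, -0.16 ± 0.069, 0.26 ± 0.134 and 0.15 ± 0.004 in that order (SD, n = 2 each). The values are not per length, so their sign has no meaning of its own and they are read only between libraries.

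**Figure D3:**
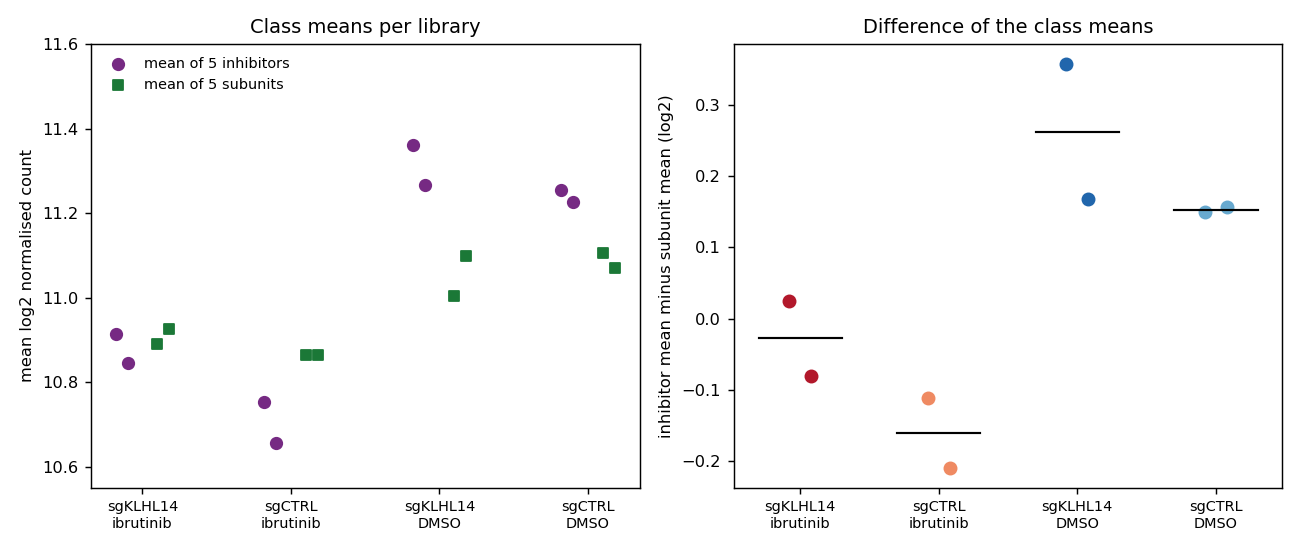
Left, the mean log2 normalised count of the 5 inhibitors and of the 5 subunits in each library, by group. Right, the inhibitor mean minus the subunit mean per library, with a bar at the group mean: the ibrutinib libraries sit between -0.21 and 0.03 and the DMSO libraries between 0.15 and 0.36.

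The guide against KLHL14, an adaptor of a ubiquitin ligase, was compared with the control guide in each treatment. In ibrutinib, 2 of the 10 genes differed, both inhibitors and both higher in the libraries labelled sgKLHL14, against 1.59% of all genes higher and 2.38% called. TNFAIP3 averaged 11.26 in sgKLHL14 and 11.01 in sgCTRL ibrutinib libraries, a difference of 0.26 (SE 0.060, limma adjusted p = 0.0233). NFKBIZ averaged 13.09 in sgKLHL14 and 12.84 in sgCTRL ibrutinib libraries, a difference of 0.25 (SE 0.058, adjusted p = 0.0233). Both calls ended without any 1 of the 4 ibrutinib libraries, with adjusted p = 0.0805 to 0.341 for TNFAIP3 and 0.0871 to 0.445 for NFKBIZ, and without the variance trend (0.136 and 0.201). The NFKBIZ call also ended without the level filter (0.109). The other 3 inhibitors were higher by 0.10 to 0.15 without passing (adjusted p = 0.535 to 0.684), and the 5 subunits differed by -0.03 to 0.10 (0.739 to 0.898). The mean difference was 0.18 for the inhibitors and 0.04 for the subunits, 0.13 apart (0.08 to 0.18 with 1 library left out), and -0.004 was the median of all genes.

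In DMSO none of the 10 genes differed between guides in limma, where 1.64% of all genes were called, and none had an unadjusted p under 0.05, against 13.8% of all genes. The differences ran from -0.28 for REL (adjusted p = 0.384) to 0.10 for TNFAIP3 (adjusted p = 0.482). The REL difference was -0.60 without sgKLHL14 DMSO replicate 2 (adjusted p = 0.00334) and 0.05 without replicate 1. Whether ibrutinib acted differently with the 2 guides was tested directly. None of the 10 genes passed in that test or had an unadjusted p under 0.05 (limma), against 0.0239% and 5.69% of all genes. The response with sgKLHL14 minus that with sgCTRL was 0.16 for TNFAIP3 (95% interval -0.02 to 0.33), 0.16 for NFKBIZ (-0.02 to 0.33) and 0.37 for REL (-0.03 to 0.78), each at adjusted p = 0.907. The guide calls of TNFAIP3 and NFKBIZ in ibrutinib are therefore not shown to be particular to ibrutinib.

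**Figure D4:**
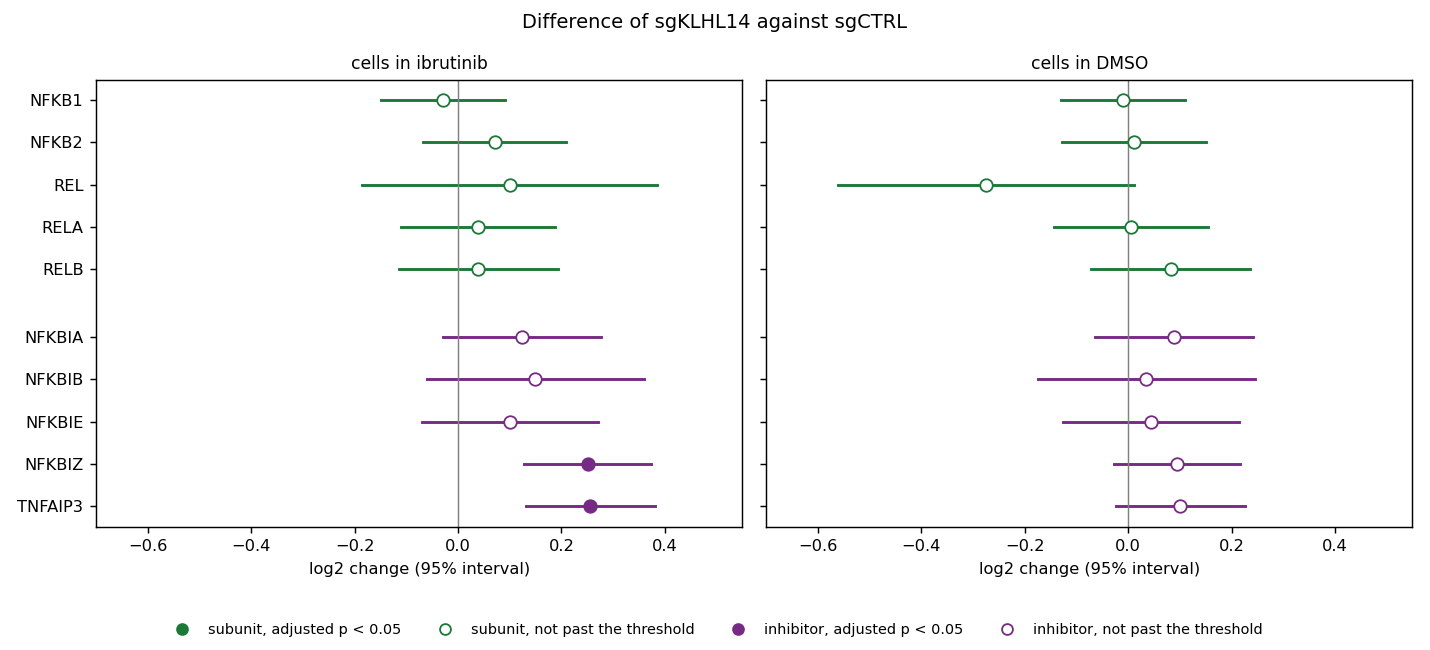
Log2 difference, sgKLHL14 against sgCTRL (horizontal axis), of each gene in ibrutinib and in DMSO, with 95% intervals from limma; filled points have an adjusted p under 0.05. NFKBIZ at 0.25 and TNFAIP3 at 0.26 in ibrutinib are the filled points.

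Per length the order of the genes changed with ibrutinib. Levels were taken as RPKM, reads scaled to transcript length and library size, with transcript lengths from GENCODE v29. In sgKLHL14 ibrutinib libraries the order was NFKBIZ at 82.0, NFKB1 at 38.7, NFKBIA at 28.4, NFKB2 at 27.5, NFKBIB at 26.3, RELA at 26.1, RELB at 21.0, TNFAIP3 at 19.1, NFKBIE at 15.8 and REL at 3.44. In sgCTRL ibrutinib it was NFKBIZ at 69.4, NFKB1 at 39.7, NFKB2 at 26.4, NFKBIA at 26.3, RELA at 25.6, NFKBIB at 23.9, RELB at 20.5, TNFAIP3 at 16.1, NFKBIE at 14.9 and REL at 3.22. From the third to the sixth place neighbours overlapped in their libraries in both ibrutinib groups. In sgKLHL14 DMSO it was NFKBIZ at 73.6, NFKBIA at 55.5, NFKB1 at 42.4, NFKB2 at 36.7, NFKBIB at 33.4, TNFAIP3 at 31.2, RELB at 23.9, RELA at 23.7, NFKBIE at 19.2 and REL at 3.75. In sgCTRL DMSO it was NFKBIZ at 69.7, NFKBIA at 52.9, NFKB1 at 43.1, NFKB2 at 36.9, NFKBIB at 33.0, TNFAIP3 at 29.4, RELA at 23.9, RELB at 22.9, NFKBIE at 18.9 and REL at 4.47. The pairs NFKBIB and TNFAIP3, and RELB and RELA, overlapped in sgKLHL14 DMSO, and no neighbours overlapped in sgCTRL DMSO, although RELA and RELB lay close. With sgCTRL, NFKBIA was 4th in ibrutinib and 2nd in DMSO, and TNFAIP3 was 8th and 6th. SDs ran from 0.0137 for NFKB1 in sgCTRL ibrutinib to 3.21 for NFKBIZ in sgCTRL DMSO (n = 2 each). The REL transcript used is 11255 bases long, so the place of REL depends on that length, and the NFKBIB length is that of its longest RefSeq-linked transcript.

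The nearest pattern of each gene was sought among the tested genes whose symbol is an official one in the RefSeq gene list. Nearness was the smallest root mean square difference of centred log2 values over the 8 libraries, which share treatments and depth. NFKBIA was nearest to PHGDH (0.0514), an enzyme of serine synthesis, and to SIAH2 (0.0517), a ubiquitin ligase. TNFAIP3 was nearest to CHDH (0.0460), an enzyme of choline oxidation, and to SRI (0.0556), a calcium-binding protein. NFKB2 was nearest to KDM6B (0.0304), a histone demethylase, and NFKB1 to SUPT16H (0.0170), a histone chaperone. REL had none of these genes closer than ZNF121 (0.0837). Among the 10 genes themselves, NFKBIA was closest to TNFAIP3 (0.119), NFKB1 to RELB (0.0685), NFKB2 to NFKBIE (0.0978), NFKBIB to NFKBIE (0.0931) and NFKBIZ to RELA (0.106). Around its own mean NFKB1 varied by a root mean square of 0.067, and NFKBIZ by 0.107. The distances of NFKB1 to RELB and of NFKBIZ to RELA were about as large, so they do not show a shared pattern.

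The rest of the pathway was read from lists. Their counts stand against 19.9% of all tested genes higher and 19.4% lower with sgKLHL14, and 18.1% higher and 17.0% lower with sgCTRL. Among 3 other IkB proteins, NFKBID, a nuclear IkB protein, fell with both guides (-1.26 with sgKLHL14, limma adjusted p = 7.41e-09, and -1.33 with sgCTRL, 3.52e-09), past the change of NFKBIA, and BCL3 and NFKBIL1 did not pass. NFKBID had log2 values of 9.14 and 9.44 in sgKLHL14 ibrutinib, 8.68 and 8.61 in sgCTRL ibrutinib, 10.60 and 10.50 in sgKLHL14 DMSO, and 10.04 and 9.92 in sgCTRL DMSO. Both sgKLHL14 libraries were above both sgCTRL libraries in each treatment. NFKBID was higher with sgKLHL14 by 0.65 in ibrutinib (SE 0.098, adjusted p = 0.000479) and by 0.58 in DMSO (adjusted p = 0.00293). The DMSO call ended without sgCTRL DMSO replicate 2 (0.0545), without sgKLHL14 DMSO replicate 1 (0.0553) and without the level filter or the variance trend, and the ibrutinib call without the variance trend.

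Of 7 IkB kinases and their relatives, 2 rose and 3 fell with each guide. Among all genes 39.3% were called with sgKLHL14 and 35.1% with sgCTRL. When the variance trend was left out, 2 rose and 2 fell with sgKLHL14. The sgKLHL14 counts also moved without either sgKLHL14 DMSO library or without sgKLHL14 ibrutinib replicate 2. The sgCTRL counts moved without sgCTRL ibrutinib replicate 1. The kinases IKBKE and IKBKB rose by 0.77 and 0.38 with sgKLHL14 and by 0.59 and 0.35 with sgCTRL. MAP3K8 and MAP3K14, kinases that act on the IkB kinases, fell with sgKLHL14 (-0.36 and -0.32) and with sgCTRL (-0.52 and -0.30).

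Of 11 TRAF and IAP adaptors 3 rose and 3 fell with each guide, against the shares of 39.3% called with sgKLHL14 and 35.1% with sgCTRL among all genes. With no variance trend 1 rose and 1 fell with sgKLHL14, and 1 rose and 2 fell with sgCTRL, and with no level filter 2 rose and 1 fell with sgKLHL14. The calls included TRAF1, itself an NF-kB target, which fell (-0.72 with sgKLHL14 and -0.82 with sgCTRL), and the kinase RIPK1, which rose (0.43 with sgKLHL14 and 0.34 with sgCTRL). Without sgCTRL DMSO replicate 1 or either sgCTRL ibrutinib library 1 adaptor rose with sgCTRL, and without sgKLHL14 DMSO replicate 1 or sgKLHL14 ibrutinib replicate 2, 1 fell with sgKLHL14. Of 4 genes of linear ubiquitin chain assembly 3 rose with each guide by 0.20 to 0.32 (RNF31, RBCK1 and FAM105B, now OTULIN). Without sgKLHL14 DMSO replicate 2 or sgKLHL14 ibrutinib replicate 2, 0 did with sgKLHL14, and without sgCTRL DMSO replicate 1 or sgCTRL ibrutinib replicate 2, 1 did with sgCTRL. With no variance trend 0 passed with either guide in limma, and with no level filter 1 passed with sgKLHL14 and 2 with sgCTRL. Of 6 genes of IkB degradation, FBXW11 rose by 0.20 and CUL1 fell by 0.18 with sgKLHL14, and 0 passed with sgCTRL in limma. One gene of 6 in each direction is near the 19.9% higher and 19.4% lower among all genes. Both sgKLHL14 calls ended with no variance trend (0.0705 and 0.0788) and without sgKLHL14 ibrutinib replicate 2, FBXW11 also without sgKLHL14 DMSO replicate 1, and CUL1 also without sgKLHL14 DMSO replicate 2 or either sgCTRL ibrutinib library, and in the compared groups alone (0.0617).

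Of 13 other negative regulators of the pathway that were measured, 2 rose and 5 fell with sgKLHL14, against 19.9% higher and 19.4% lower among all genes. With sgCTRL 2 rose and 6 fell, against 18.1% higher and 17.0% lower. TNIP3 and TNIP1, partners of the TNFAIP3 protein, fell with sgKLHL14 (-2.94 and -0.41) and with sgCTRL (-3.12 and -0.34). ZC3H12A, a ribonuclease that degrades inflammatory mRNAs, fell too (-0.56 with sgKLHL14 and -0.45 with sgCTRL). ITCH, a ubiquitin ligase that works with the TNFAIP3 protein, rose by 0.41 with sgKLHL14 and 0.29 with sgCTRL. Without sgKLHL14 DMSO replicate 2 or sgKLHL14 ibrutinib replicate 1, 1 rose with sgKLHL14.

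Of 32 measured NF-kB target genes 3 rose and 22 fell with sgKLHL14 (median -0.42), against 19.9% higher and 19.4% lower among all genes (median 0.01). With sgCTRL 1 rose and 23 fell (median -0.47), against 18.1% and 17.0% (median 0.02). This list shares genes with the lists above, among them TRAF1, MAP3K14 and TNIP1, so the counts are not separate. IRF4 is also one of the B cell markers. LTB, which encodes lymphotoxin beta, rose with both guides, by 2.21 with sgKLHL14 and 2.20 with sgCTRL, while the cytokine gene IL10 fell (-2.51 with sgKLHL14 and -2.50 with sgCTRL). In ibrutinib, 4 target genes were higher with sgKLHL14 and 0 lower (limma): IRF4 by 0.43 (adjusted p = 0.000330), BCL2L1 by 0.42, CD40 by 0.31 and IER3 by 0.59. The IRF4 call held without any 1 library. BCL2L1 lost its call without sgCTRL ibrutinib replicate 2 (0.0614), CD40 without any 1 of the 4 ibrutinib libraries, and IER3 without sgCTRL ibrutinib replicate 2 or either sgKLHL14 ibrutinib library. IKBKE was likewise higher by 0.42 with sgKLHL14 in ibrutinib (adjusted p = 0.0162), except without either sgCTRL ibrutinib library or sgKLHL14 ibrutinib replicate 2. In DMSO the called genes of these lists, besides NFKBID, were CD83 at -0.30 and TRAFD1 at -0.31, and both lost the call without either sgCTRL DMSO library, CD83 also without sgKLHL14 DMSO replicate 2 or either sgCTRL ibrutinib library. With no level filter CD40 (0.0786), IER3 (0.139), IKBKE (0.0563), CD83 (0.156) and TRAFD1 (0.0730) lost their calls, and IER3 also with voom (0.146) and in the compared groups alone (0.114). With no variance trend, none of these guide calls of IRF4, BCL2L1, CD40, IER3, IKBKE, CD83 and TRAFD1 passed.

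**Figure D5:**
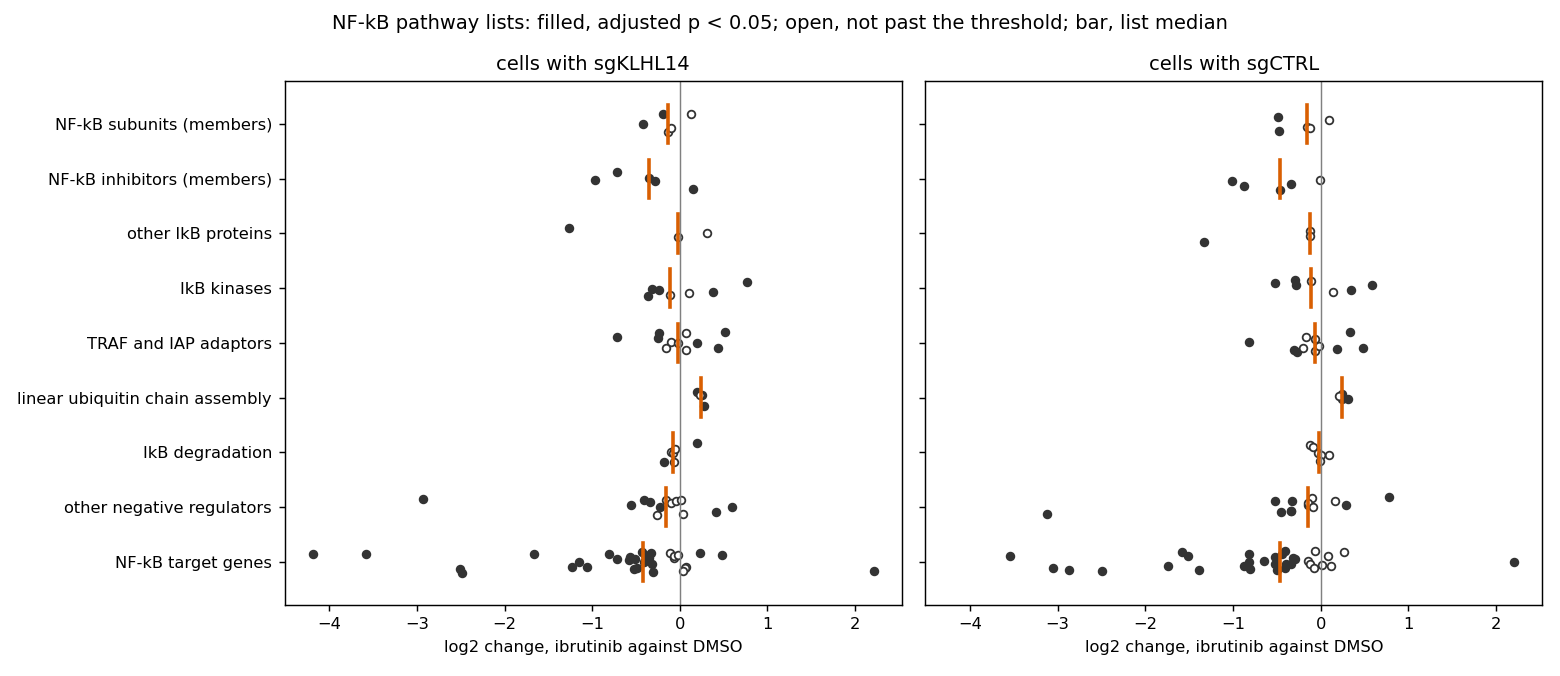
Log2 change, ibrutinib against DMSO (horizontal axis), of each measured gene of each pathway list (rows), in sgKLHL14 cells and in sgCTRL cells; filled points have an adjusted p under 0.05, open points do not, and the bar is the list's median. Most NF-kB target genes and inhibitors lie left of 0, whereas the kinase and adaptor lists hold filled points on both sides.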

How the data were processed

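RNA was measured in 8 TMD8 libraries, 2 in each of 4 groups. Libraries came from total RNA by a stranded mRNA kit and both fragment ends were sequenced, per the labels' protocols. Per the submitters' processing notes, bcl2fastq, STAR and HTSeq were used with the build hg19. Versions, settings, annotation and use of strand were not given in the sources used here, so overlapping and antisense genes cannot be told apart. The deposited table gives log2 normalised counts. Undoing the log and dividing by 1 factor per library gave whole reads for every value (tolerance 0.0006), with 0 reads listed at 0, and the row of total reads stayed out of all fits. The table had 0 columns of other samples.

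Genes with a mean log2 value of at least 4.2 (12531) entered limma 3.58.1 (R 4.3.3) with a mean for each of the 4 groups and a mean-variance trend (4 residual and 14.9 prior degrees of freedom). A call is a Benjamini-Hochberg adjusted p under 0.05 over all of them. The fit was tested on simulated data. Depth was 12333876 to 23467110 reads per library, and intervals cover the spread between these libraries. The 10 members and the lists were chosen with earlier results of these data known. Text names all members, KLHL14, up to 4 called genes a list and contrast with the smallest p, and the nearest patterns. BCL3 and NFKBIL1 were named after their values were seen. Alternatives were other filters, priors, scalings and a pseudocount of 16, voom on recovered reads, the compared groups alone, a replicate block and leaving out each library. Some genes of the marker and pathway lists are not reported here. One gene of the negative regulators and 2 of the target genes did not pass the filter.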

Additional observations from a re-analysis of the deposited data

Results flagged for a closer look

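KLHL14, the gene the guide targets, was called for a different response to ibrutinib with the 2 guides. It rose by 0.90 with sgKLHL14 and by 0.24 with sgCTRL (limma adjusted p = 9.93e-10 and 0.00418), and the difference of 0.657 (SE 0.085, adjusted p = 0.00164) was 1 of 3 genes called in that test. With no level filter 0 genes passed that test, and 0 passed with no variance trend. The KLHL14 difference was thus not called under either of these settings. KLHL14 was higher in both sgKLHL14 ibrutinib libraries than in every other library.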

How the results depend on the processing

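Of 890 values of the 10 genes under 18 alternatives, 817 kept their direction and their side of the threshold, 42 kept the direction but lost the call, 2 gained one and 29 changed direction; the difference between responses could not be fitted in the compared groups alone. The mean change of inhibitors minus that of subunits moved by less than 0.084, its SD within groups, except where 1 library of sgKLHL14 DMSO was left out. With 1 library left out it ran from -0.385 to -0.196 for ibrutinib with sgKLHL14, -0.362 to -0.264 with sgCTRL, 0.015 to 0.204 for the guides in DMSO, 0.080 to 0.184 for the guides in ibrutinib, and -0.072 to 0.117 for the difference between responses, where the sign turned. The number of the 10 genes called for ibrutinib with sgKLHL14, 7, was 4 without the level filter, 3 without the variance trend and 3 to 7 with 1 library left out. For the guides in ibrutinib, 2, it was 1, 0 and 0 to 2, and for the guides in DMSO 0 to 1 with 1 library left out. NFKBIZ with ibrutinib in sgCTRL cells was 0.007 with quantile scaling, and with median scaling the guide differences in DMSO were -0.005 for NFKB2 and -0.011 for RELA. The cause was not tested.

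With 1 library left out, directions turned as follows. With ibrutinib, NFKBIZ in sgCTRL cells ran from -0.048 to 0.040 and REL in sgKLHL14 cells from -0.424 to 0.230. Guide differences in DMSO ran from -0.043 to 0.022 for NFKB1, -0.018 to 0.042 for NFKB2, -0.602 to 0.052 for REL, -0.056 to 0.067 for RELA, -0.069 to 0.140 for NFKBIB and -0.053 to 0.141 for NFKBIE. In ibrutinib they ran from -0.016 to 0.215 for REL, -0.009 to 0.086 for RELA and -0.029 to 0.108 for RELB. The difference between responses ran from -0.052 to 0.013 for NFKB1, -0.028 to 0.095 for RELA, -0.110 to 0.027 for RELB, -0.026 to 0.096 for NFKBIA and -0.040 to 0.154 for NFKBIE.

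Counts over all genes moved more. For the guides in DMSO, 206, the count was 47 without the filter, 25 without the trend and 64 to 530 with 1 library left out. For the guides in ibrutinib, 298, it was 155, 95 and 122 to 363, and for the difference between responses, 3, it was 0, 0 and 2 to 4. For ibrutinib with sgCTRL, 4403, it was 2902 to 4631 with 1 library left out. Median scaling lowered the share of higher calls for the guides in DMSO to 77 of 194, against 98 of 206. Deviations of same-numbered libraries were weakly correlated between groups (-0.055 to 0.122). The labels do not say whether the numbers pair the libraries, and these correlations cannot decide it. With the replicate block 7, 6, 0, 2 and 0 of the 10 genes were called for ibrutinib with sgKLHL14, ibrutinib with sgCTRL, the guides in DMSO, the guides in ibrutinib and the difference, and 368 genes in all for the guides in DMSO. The class differences were then -0.290, -0.313, 0.110, 0.132 and 0.022. With 2 libraries a group, changes of about 0.1 could not be told from the replicate spread.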
